A study of Mus musculus with 52 samples.

Results

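The nuclear genes for the subunits of oxidative phosphorylation were followed in RNA from the frontal cortex of 52 mice. The genes were chosen by symbol (Nduf, Sdha to Sdhd, Uqcr, Cox4 to Cox8 and Atp5), which took 87 of the 15692 genes in the count table. Of these, 36 encode subunits of complex I, 3 of complex II, 7 of complex III, 13 of complex IV and 15 of complex V, 74 subunits in all. The other 13 were kept apart from the subunits: the 7 complex I assembly factors Ndufaf1 to Ndufaf7, Ndufa4 and Ndufa4l2 (associated with complex IV), Atp5s (a coupling factor of complex V), Atp5sl (named after Atp5s and known in human cells as a complex I assembly factor), Cox7a2l (which joins complexes III and IV) and the pseudogene Atp5c1-ps. All 87 passed the filter on low counts, which removed 497 genes and left 15195. Sdhd and genes beginning with Cox8 were not analysed here.

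Every animal came from a cross of APP/PS1ΔE9 mice, whose transgenes drive amyloid plaque formation, with mice in which the mouse Apoe gene is replaced by human APOE4 or APOE3 on both chromosomes. The genotypes are called APP/E4 and APP/E3. All groups, controls included, carry the amyloid transgenes and a human APOE gene, and no amyloid-free group enters any comparison. The animals ate a Western high-fat diet (HFD, D12079B) with 40% of calories from milk fat and corn oil, or the normal diet (ND, Prolab Isopro RMH 3000). By the labels' protocols the mice were on average 3.5 months old when the diet began, stayed on it for 3 months, and were on average 14.7 months old at the behavioural tests. The mice were perfused, and frontal cortex RNA was made into mRNA libraries. The labels give neither the age of single animals nor the promoter of the transgenes. There were 7 APP/E4 HFD, 7 APP/E4 ND, 8 APP/E3 HFD and 7 APP/E3 ND females, and 5 APP/E4 HFD, 6 APP/E4 ND, 6 APP/E3 HFD and 6 APP/E3 ND males, with 1 library each.

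Oxidative phosphorylation is the chain of reactions in the inner mitochondrial membrane that makes most of the ATP of a neuron. Complex I takes electrons from NADH and complex II from succinate, complex III passes them to cytochrome c, and complex IV hands them to oxygen. Complexes I, III and IV pump protons out as they do so, and complex V, the ATP synthase, uses the returning protons to make ATP. Most subunits are encoded in the nucleus and imported, while a small set is encoded by mitochondrial DNA and made inside the organelle. Assembly factors help to build a complex and are absent from the finished enzyme. NRF1, ETS family factors of the GABP type and CCAAT-binding factors are the textbook regulators of the nuclear genes.

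Library totals ran from 5343347 to 13128299 counts, apart from 1 library of 39388340 counts, and 3 counts corresponded to 0.0762 to 0.561 CPM. Levels are given as CPM, the usual depth-normalised read count, with each library total multiplied by its TMM factor. Markers of excitatory neurons were present. Slc17a7, a glutamate transporter of these neurons, had a median of 1472 CPM over the females and 1492 CPM over the males. All 6 excitatory neuron markers were measured in every group, which does not by itself settle the region dissected. Summed markers of striatal neurons ranged from 128 to 1795 CPM over the libraries. The libraries also fell into 2 classes by 1 gene. Csl, a near-copy of the citrate synthase gene, lay between 0.0936 and 1.15 CPM in 11 libraries and between 10.7 and 18.2 CPM in the other 41. All 11 low-Csl libraries were female, 5 of them in the APP/E3 HFD group and 2 in each other female group. Of the 23 male libraries, 14 had a title without the sex letter that all other titles carry. What these features record is not given in the sources used here.

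The promoters of 3 members are shown because these are the members that were called between the genotypes (Ndufa8, Cox6a1) or the sexes (Atp5k) and hold the NRF1-type motif. Each line gives the 250 bases before the RefSeq transcription start (GRCm38.p6, 5′ to 3′ on the gene's own strand), with the palindrome CGCATGCG in capitals. The windows are chr2:36049339-36049588 for Ndufa8, chr5:115348959-115349208 for Cox6a1 and chr5:108434400-108434649 for Atp5k, all on the minus strand.
Ndufa8: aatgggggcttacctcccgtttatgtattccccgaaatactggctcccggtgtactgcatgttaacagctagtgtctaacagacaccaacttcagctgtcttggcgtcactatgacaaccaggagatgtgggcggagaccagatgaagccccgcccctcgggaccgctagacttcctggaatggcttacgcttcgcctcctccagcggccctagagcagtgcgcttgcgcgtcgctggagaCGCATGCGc
Cox6a1: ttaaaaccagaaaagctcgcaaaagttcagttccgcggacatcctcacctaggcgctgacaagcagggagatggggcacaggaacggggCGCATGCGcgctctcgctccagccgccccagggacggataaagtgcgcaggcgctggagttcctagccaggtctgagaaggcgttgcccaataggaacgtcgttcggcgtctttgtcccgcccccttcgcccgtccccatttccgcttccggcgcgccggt
Atp5k: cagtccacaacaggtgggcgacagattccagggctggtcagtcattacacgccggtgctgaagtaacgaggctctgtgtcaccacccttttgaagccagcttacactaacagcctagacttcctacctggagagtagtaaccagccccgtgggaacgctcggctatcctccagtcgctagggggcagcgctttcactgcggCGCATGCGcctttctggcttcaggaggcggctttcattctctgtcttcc
The motif begins 9 bases before the start in Ndufa8, 161 in Cox6a1 and 49 in Atp5k. Start windows were found for 71 of the 87 members and 61 of the 74 subunits. CGCATGCG was in 7 of these 61 subunit promoters (11.5%), those of Ndufa8, Ndufa11, Cox6a1, Atp5g2, Atp5j, Atp5k and Atp5l, and in that of the assembly factor Ndufaf4. Over the 11992 genes of the count table with a start window the share was 3.23%, and over all 32851 start windows 1.55%. CCGGAAG, the core of ETS family sites searched on both strands, was in 10 of 61 subunit promoters (16.4%), against 13.7% of the genes of the count table and 6.91% of all windows. CCAAT, also searched on both strands, was in 27 of 61 (44.3%), against 39.8% of the genes of the count table and 33.8% of all windows. These are matches of letters in a window of fixed length and no measure of binding. A link between a motif and the differences between groups was not tested.

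Per kilobase of transcript, complex V and complex IV held the most abundant members. The median level was 68.3 CPM per kilobase over complex I, 95.1 over complex II, 131 over complex III, 87.4 over complex IV and 98.4 over complex V. The assembly factors were lower, with a median of 16 and a range of 4.39 (Ndufaf6) to 23.2 (Ndufaf5). Atp5b, the catalytic beta subunit of the ATP synthase, stood at 587, Cox4i1, the main isoform of subunit 4 of cytochrome c oxidase, at 505, and Atp5a1, the alpha subunit, at 288 CPM per kilobase. In complex III the highest was Uqcrh, the hinge protein next to cytochrome c1, at 190.3, and in complex II Sdha, the flavoprotein that oxidises succinate, at 162. In complex I Ndufb9, an accessory subunit of the membrane arm, stood at 173 CPM per kilobase.

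Genes with a muscle, lung or testis isoform were read almost entirely from the general isoform. Cox4i1 had 505 CPM per kilobase against 2.02 for Cox4i2, and Cox6a1 had 295 against 4.97 for Cox6a2. Cox6b1 had 231 against 3.02 for Cox6b2, and Cox7a2 had 171 against 2.51 for Cox7a1, with 71.2 for the supercomplex factor Cox7a2l. Ndufa4, a late-joining partner of complex IV, had 268 against 2.05 for Ndufa4l2. The genes for the c ring of the ATP synthase differed likewise, with 273 CPM per kilobase for Atp5g3, 35.3 for Atp5g1 and 1.7 for Atp5g2. The values of Atp5g1 and Atp5g2 are uncertain, since 66% and 100% of the 50-base windows of their transcripts occur exactly in other annotated genes. The same holds for Atp5l, whose 68.5% shared windows include matches to 12 pseudogenes and whose level was 2.23, and for Cox7c, with 53% shared windows and a level of 9.2 CPM per kilobase.

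The subunits moved together from animal to animal. For each library the log2 CPM of each subunit was centred on that gene's mean over all libraries and averaged over the 74 subunits. This subunit level averaged 0.0027 ± 0.072 in APP/E4 HFD, 0.011 ± 0.12 in APP/E4 ND, 0.072 ± 0.12 in APP/E3 HFD and 0.069 ± 0.14 in APP/E3 ND females (log2 scale, SD). In males it averaged -0.083 ± 0.05 in APP/E4 HFD, -0.011 ± 0.17 in APP/E4 ND, -0.15 ± 0.15 in APP/E3 HFD and 0.034 ± 0.17 in APP/E3 ND animals. The pooled SD within groups was 0.13.

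**Figure D1:**
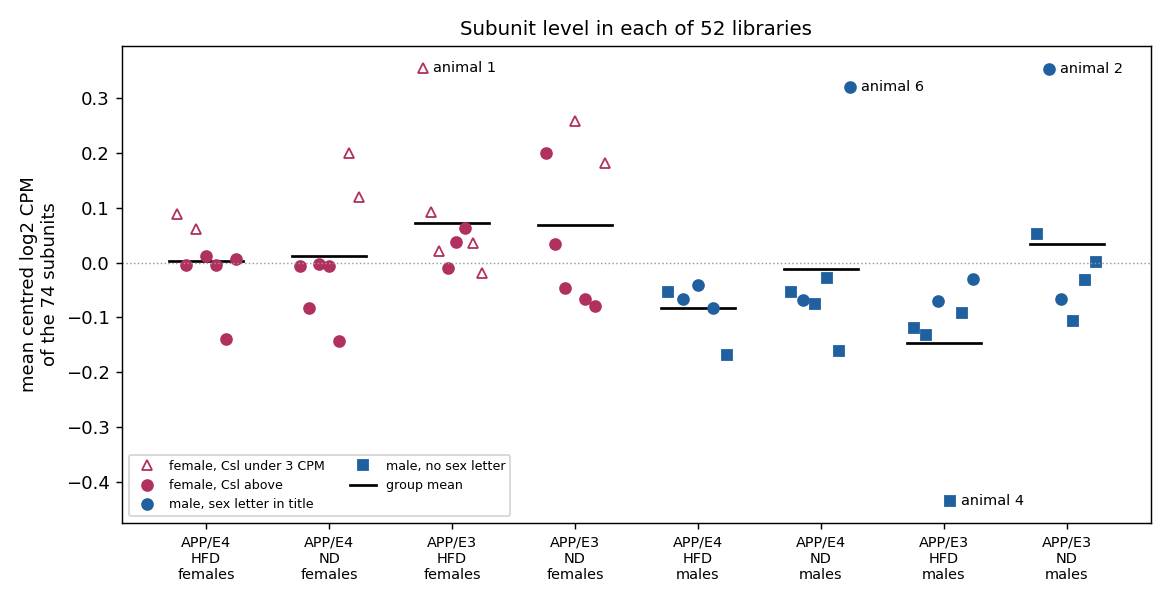
The mean centred log2 CPM of the 74 subunits (vertical axis) is plotted for each library in the 8 groups (horizontal axis), with a bar at each group mean. Triangles mark the 11 low-Csl libraries and squares the males without a sex letter in the title. 4 numbered animals lie between 0.32 and 0.36 or at -0.43, away from the rest of their groups.

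Single libraries carried much of the spread, as the plot of subunit levels by library shows. APP/E3 HFD male 4 stood at -0.43, and 66 of its 74 subunits were below every other animal of its group. APP/E3 ND male 2 stood at 0.35 with 66 subunits above every other animal of its group, APP/E4 ND male 6 at 0.32 with 67, and the low-Csl APP/E3 HFD female 1 at 0.36 with 65. Without these 4 libraries the group means were -0.077 ± 0.05 in APP/E4 ND males, -0.088 ± 0.041 in APP/E3 HFD males, -0.03 ± 0.061 in APP/E3 ND males and 0.031 ± 0.039 in APP/E3 HFD females. The choice of these 4 was made after their values were seen and by the level of these same subunits. Fits without them are therefore no independent check of the members.

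Across the 52 libraries, after removal of the group means, the level of complex I followed that of complex III (Pearson r = 0.96), complex V (0.91), complex IV (0.88) and complex II (0.77). The subunit level followed the Ndufaf assembly factors (r = 0.87, Spearman rho = 0.79) and the 41 assembly factors with other symbols (0.92, rho = 0.87). It also followed the 21 genes of the TCA cycle and pyruvate dehydrogenase, with r = 0.82. With the 13 subunits encoded by mitochondrial DNA the r was -0.21, with astrocyte markers -0.43 and with excitatory neuron markers 0.11. Astrocytes did not stand alone: markers of mural cells and fibroblasts gave -0.41, of endothelial cells -0.38 and of inhibitory neurons 0.38. Oligodendrocyte markers gave 0.19, microglial markers -0.15 and the regulators of mitochondrial biogenesis -0.081. Leaving out the 2 libraries farthest from the median gave 0.82 for the Ndufaf factors, -0.22 for the mitochondrially encoded subunits and -0.34 for the astrocyte markers. Within the 41 other libraries alone the values were 0.87, -0.062 and -0.46. These correlations are descriptions: all lists share library depth and scaling. In bulk tissue fewer cells of a type and less RNA per cell cannot be told apart.

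The first comparison asked what the high-fat diet did to these genes. No member was called between HFD and ND, averaged over genotype and sex, at an adjusted p under 0.05 (edgeR quasi-likelihood test, Benjamini-Hochberg over 15195 genes), and 0% of all genes tested were. DESeq2 and limma voom also called 0 members. As a description, 70 of the 74 subunits were lower on HFD, against 51.2% of all genes tested. Their median log2 difference was -0.073, against -0.002 over all genes. The subunits moved together from animal to animal (complex I with complex III, r = 0.96), so a few libraries can shift them all. Counts of subunits lower or higher, here and below, are therefore not separate observations, and the lean was not tested. At an unadjusted p under 0.05 there were 20 members, all lower on HFD, 23.0% of the 87 against 9.2% of all genes.

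By complex, all 36 complex I subunits were lower on HFD with a median of -0.077, all 3 of complex II (-0.06), all 7 of complex III (-0.039), all 13 of complex IV (-0.073) and 11 of 15 of complex V (-0.06). The 4 complex V genes that were not lower were Atp5o, Atp5k, Atp5l and Atp5g2. They share windows with other genes, but so do Atp5b, Atp5c1, Atp5f1, Atp5g1, Atp5h, Atp5j and Atp5j2, which were lower. The part of shared sequence in this was not tested. The 7 Ndufaf assembly factors had a median of -0.024 with 5 of 7 lower. The 40 subunits that share no 50-base window with another gene were all lower (-0.075), as were 30 of the 34 that share some (-0.064). Of related lists, 30 of 41 assembly factors with other symbols were lower (median -0.038), 18 of 21 TCA cycle genes (-0.038), 9 of 13 mitochondrially encoded subunits (-0.019), 10 of 16 electron carriers and linked enzymes (-0.026), 9 of 11 uncouplers and carriers (-0.039) and 9 of 17 regulators of mitochondrial biogenesis (-0.014).

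Ndufb2, a small accessory subunit of the membrane arm of complex I, had the smallest p. Its lowest, median and highest values were 19.5, 28.4 and 43.1 CPM on HFD, against 23.2, 31 and 45.6 CPM on ND, and the ranges overlapped. The log2 difference was -0.18 ± 0.05 (SE, adjusted p = 0.299 by edgeR). Uqcrq, a small subunit of complex III near the quinone site, averaged 58.5 ± 9.24 CPM on HFD and 64.7 ± 11 CPM on ND (SD, n = 26 each), a log2 difference of -0.18 ± 0.054 (SE, adjusted p = 0.353). Ndufa6, a LYR-motif subunit of complex I, averaged 48.7 ± 5.4 and 53 ± 6.7 CPM in the same order, with -0.14 ± 0.044. Atp5g3, a gene for the c ring of the ATP synthase, averaged 188 ± 16.5 CPM on HFD and 202 ± 17.8 CPM on ND, with -0.11 ± 0.035. Cox6a1 averaged 162 ± 21.5 CPM on HFD and 175 ± 22.7 CPM on ND, with -0.14 ± 0.044. Of complex II, Sdhb, the iron-sulfur subunit, had -0.086 ± 0.036, Sdhc, a membrane anchor, -0.06 ± 0.032 and Sdha -0.02 ± 0.02. Of the assembly factors, Ndufaf3, which acts early in building complex I, had -0.13 ± 0.043 and Ndufaf2, which acts late, -0.12 ± 0.068. Adjusted p-values of these genes lay between 0.299 and 0.793, so none of these differences passed the test.

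The group means of these genes show how small the diet difference is beside the spread between animals. For Ndufa6 they ran from 43.8 ± 4.53 CPM in APP/E3 HFD males to 55.5 ± 5.41 CPM in APP/E3 ND females, and for Atp5g3 from 178 ± 18.5 CPM in APP/E3 HFD males to 205 ± 27.6 CPM in APP/E4 ND males. Sdhb ran from 100.4 ± 8.01 CPM in APP/E3 HFD males to 116 ± 17.6 CPM in APP/E3 ND males, Sdhc from 74.5 ± 3.52 CPM in APP/E3 HFD males to 82.7 ± 5.97 CPM in APP/E4 ND males and Sdha from 459 ± 14 CPM in APP/E3 ND males to 492 ± 20.8 CPM in APP/E4 ND males. Uqcrc1, a core subunit of complex III, ran from 204 ± 12.2 CPM in APP/E4 HFD males to 227 ± 20.6 CPM in APP/E3 ND females. For Cox5b, a zinc-binding subunit of complex IV, the range was 26 ± 4.07 CPM in APP/E3 HFD males to 34.2 ± 7.21 CPM in APP/E3 HFD females. Ndufaf3 ran from 21.8 ± 1.99 CPM in APP/E4 HFD males to 27.3 ± 4.06 CPM in APP/E3 ND males. In 7 of these 8 genes the lowest group mean belonged to HFD males. The genes were named for small p-values in these same data, so this count is no separate support for a diet difference. The APP/E3 HFD males include animal 4, in which 66 subunits lay below every other animal of the group. Of the factors kept apart from the subunits, Ndufa4 ran from 152 ± 7.23 CPM in APP/E4 HFD males to 174 ± 21.9 CPM in APP/E3 HFD females and Ndufa4l2 from 1.56 ± 0.529 CPM in APP/E3 HFD males to 2.38 ± 0.524 CPM in APP/E3 ND females. Cox7a2l ran from 73.4 ± 10.3 CPM in APP/E3 HFD males to 80.1 ± 12.2 CPM in APP/E4 ND males, Atp5s from 14.7 ± 0.859 CPM in APP/E3 HFD males to 16.3 ± 1.37 CPM in APP/E3 ND females and Atp5sl from 35.1 ± 1.67 CPM in APP/E4 HFD males to 40.5 ± 2.54 CPM in APP/E3 HFD females. The diet differences of these were -0.066 ± 0.043 for Ndufa4, -0.05 ± 0.04 for Cox7a2l, -0.076 ± 0.045 for Atp5s and -0.05 ± 0.031 for Atp5sl.

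**Figure D2:**
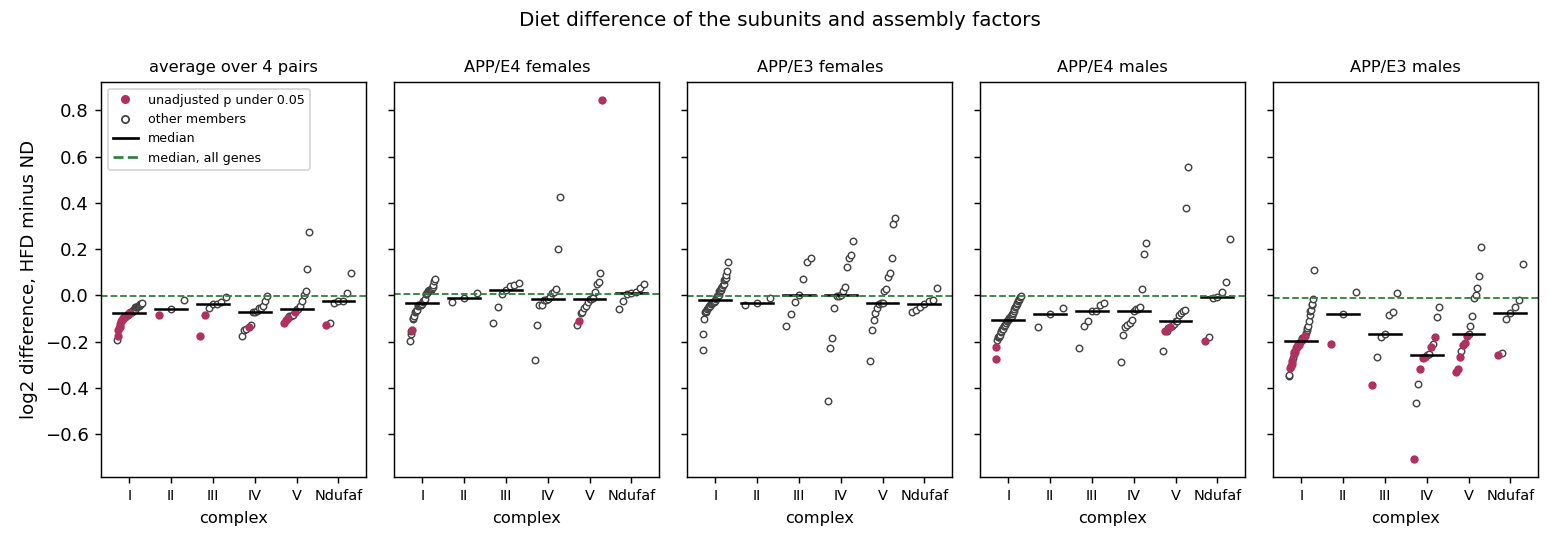
The log2 difference HFD minus ND (vertical axis) of each subunit and Ndufaf assembly factor is plotted by complex (horizontal axis) for the average over the 4 combinations of genotype and sex and for each of them. Filled points have an unadjusted p under 0.05, bars are medians, and the dashed line is the median over all genes. The medians of APP/E3 males lie lowest, between -0.26 (complex IV) and -0.076 (Ndufaf).

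Within the 4 combinations of genotype and sex no member was called either, and the share of all genes called was 0% in APP/E4 females, 0.0263% in APP/E3 females, 0% in APP/E4 males and 0% in APP/E3 males. DESeq2 and limma voom also called 0 members in each. In APP/E4 females 44 of 74 subunits were lower on HFD (48.3% of all genes) with a median log2 difference of -0.018, and 3 members had an unadjusted p under 0.05 (3.45% of 87, against 7.9% of all genes). In APP/E3 females 43 of 74 were lower (51.6% of all genes) with a median of -0.011, and 1 member had an unadjusted p under 0.05, against 4.69% of all genes. In APP/E4 females those 3 were Atp5g2 at 0.84 ± 0.32, Ndufs1 at -0.15 ± 0.061 and Atp5a1 at -0.11 ± 0.055, and in APP/E3 females it was Ndufa4l2 at -0.43 ± 0.21.

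In males most subunits were lower on HFD. In APP/E4 males 69 of 74 subunits were lower (50.8% of all genes) with a median of -0.11, and 5 members had an unadjusted p under 0.05, 5.75% of 87 against 3.65% of all genes. They were Ndufa2 (-0.28 ± 0.10), Ndufa1 (-0.22 ± 0.10), Atp5b (-0.14 ± 0.066), Ndufaf3 (-0.20 ± 0.094) and Atp5g3 (-0.16 ± 0.077). In APP/E3 males 68 of 74 were lower (52.8% of all genes) with a median of -0.20, and 30 members had an unadjusted p under 0.05, against 13.6% of all genes. By complex the medians in APP/E3 males were -0.20 for complex I, -0.08 for II, -0.17 for III, -0.26 for IV and -0.17 for V. The assembly factors had -0.076.

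In APP/E3 males the smallest p-values belonged to Uqcrq, Cox6a1 and Cox4i1. Uqcrq had lowest, median and highest values of 42.6, 52.3 and 55.6 CPM in HFD animals, against 56.3, 62 and 90.2 CPM in ND animals. The log2 difference was -0.39 ± 0.11 (adjusted p = 0.266, edgeR quasi-likelihood test). Cox4i1 averaged 337 ± 39.1 CPM on HFD and 407 ± 59.4 CPM on ND, with -0.27 ± 0.078, and Cox6a1 averaged 150.1 ± 14.6 and 187 ± 21.8 CPM, with -0.32 ± 0.092. Atp5e, the epsilon subunit of the ATP synthase, had -0.33 ± 0.11. The count of members at an unadjusted p under 0.05 rested on single animals. Without HFD male 4 it was 12, with 64 of 74 subunits lower on HFD. Without ND male 2 it was 8, with 65 of 74 lower. The share of all genes in these single omissions is not given here. Without the 4 libraries far from their groups the count was 6, against 5.21% of all genes, with a subunit median of -0.051. In APP/E3 females, where HFD female 1 is one of the 4, 56 of 74 subunits were then lower, with a median of -0.054, and 6 members had an unadjusted p under 0.05, against 6.56% of all genes. In APP/E4 males the median was -0.022 without ND male 6 and the other 3. The averaged diet median was then -0.034, with 10 members at an unadjusted p under 0.05 against 6.24% of all genes.

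The averaged diet median stayed negative under all 11 alternatives of scaling, filter, tool and library set. With terms for the low-Csl class and the title style it was -0.091, and 50 members had an unadjusted p under 0.05, against 13.2% of all genes, with 0 called by edgeR. The difference of the diet difference between the sexes (diet by sex interaction, females minus males) had a subunit median of 0.14, with 65 of 74 subunits higher against 52.1% of all genes. No member was called by edgeR, DESeq2 or limma voom, against 0% of all genes by edgeR, and 12 had an unadjusted p under 0.05 against 7.84%. The smallest p was that of Atp5j2, the f subunit of the ATP synthase membrane part, at 0.39 ± 0.12. Without the 4 libraries far from their groups the median of this interaction was 0.01. The diet by genotype interaction had a subunit median of 0.015, 0 members called against 0% of all genes, and 1 member, Atp5g2, at an unadjusted p under 0.05 by edgeR against 9.97%, and 0 by DESeq2 or limma voom.

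The 13 subunits encoded by mitochondrial DNA were lower on HFD in 13 of 13 cases in APP/E3 males, with a median of -0.30. In APP/E4 males 13 of 13 were higher (0.10), as in APP/E4 females (0.19), while in APP/E3 females 7 of 13 were higher (0.043). The diet by genotype interaction was positive in all 13, with a median of 0.31 and 5 at an unadjusted p under 0.05, against 9.97% of all genes. None was called. In APP/E3 females the centred level of these 13 averaged -0.42 ± 0.57 on HFD and -0.18 ± 0.31 on ND (SD), the opposite sign of the fitted median. It averaged -0.71 ± 0.20 over the 11 low-Csl libraries, which include 5 of the 8 HFD and 2 of the 7 ND animals of that group, and the part of this class in the interaction was not tested.

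The second comparison set APP/E4 against APP/E3. Of the 87 members 6 were called (6.90%, against 6.79% of all genes tested), 1 higher and 5 lower in APP/E4. The share called was close to that of all genes, so the calls do not set these members apart as a set. Over the subunits the median log2 difference was -0.026 and 47 of 74 were lower, against 50% of all genes. The members called were the complex I subunits Ndufs1, Ndufa8 and Ndufb2, the complex IV subunit Cox6a1 and the complex V subunits Atp5d and Atp5j2. DESeq2 called 9, beside 1217 of all 15194 genes it tested, and limma voom 5, beside 1003 of 15195.

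Ndufs1, the largest core subunit of complex I and the carrier of iron-sulfur clusters in the arm that binds NADH, was the one that rose. Ndufs1 had lowest, median and highest values of 119.8, 157 and 182 CPM in APP/E4 cortex, against 123, 138 and 166 CPM in APP/E3 cortex. The ranges overlapped, and the log2 difference was 0.13 ± 0.032 (SE, adjusted p = 0.00532, edgeR). In females Ndufs1 averaged 143 ± 13.4 CPM in APP/E4 HFD, 158 ± 15 in APP/E4 ND, 136 ± 5.98 in APP/E3 HFD and 143 ± 13.8 in APP/E3 ND animals. In males Ndufs1 averaged 155 ± 12.7 CPM in APP/E4 HFD, 159 ± 8.23 in APP/E4 ND, 146 ± 10.2 in APP/E3 HFD and 135 ± 9.5 in APP/E3 ND animals. The APP/E4 mean was the higher one in each of the 4 pairs of groups matched for diet and sex, by 0.069 ± 0.06 in HFD females, 0.15 ± 0.061 in ND females, 0.089 ± 0.07 in HFD males and 0.24 ± 0.066 in ND males on the log2 scale. The call held without each of the 52 libraries in turn.

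Ndufa8, an accessory subunit of complex I that faces the intermembrane space, fell. Ndufa8 had lowest, median and highest values of 60.3, 75.8 and 94.3 CPM in APP/E4 cortex, against 58.7, 80.4 and 114 CPM in APP/E3 cortex. The log2 difference was -0.14 ± 0.043 (adjusted p = 0.0356). In females Ndufa8 averaged 76.1 ± 2.57 CPM in APP/E4 HFD, 74.9 ± 5.62 in APP/E4 ND, 82.5 ± 9.51 in APP/E3 HFD and 83.9 ± 7.46 in APP/E3 ND animals. In males Ndufa8 averaged 69.3 ± 6.03 CPM in APP/E4 HFD, 75.2 ± 11.9 in APP/E4 ND, 74 ± 8.56 in APP/E3 HFD and 86 ± 14 in APP/E3 ND animals. Ndufb2 also fell, with a log2 difference of -0.16 ± 0.05 (SE, adjusted p = 0.042). Ndufb2 had lowest, median and highest values of 23.2, 29.2 and 38.5 CPM in APP/E4 cortex, against 19.5, 31.6 and 45.6 CPM in APP/E3 cortex. In females Ndufb2 averaged 29.4 ± 2.6 CPM in APP/E4 HFD, 31.5 ± 3.57 in APP/E4 ND, 35.7 ± 4.38 in APP/E3 HFD and 38.4 ± 4.87 in APP/E3 ND animals. In males Ndufb2 averaged 25.8 ± 1.71 CPM in APP/E4 HFD, 29.4 ± 5.23 in APP/E4 ND, 25.3 ± 3.24 in APP/E3 HFD and 31.6 ± 4.77 in APP/E3 ND animals. By sex its difference was -0.28 ± 0.092 on HFD and -0.28 ± 0.094 on ND, against 0.025 ± 0.11 in HFD males and -0.096 ± 0.10 in ND males. The genotype by sex interaction of Ndufb2 was -0.25 ± 0.10 (unadjusted p = 0.0168, adjusted p = 0.948, edgeR), so a difference between the sexes was not called.

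Cox6a1 had a log2 difference of -0.14 ± 0.044 (SE, adjusted p = 0.0457) between the genotypes. Cox6a1 had lowest, median and highest values of 131, 155 and 219 CPM in APP/E4 cortex, against 122, 174 and 228 CPM in APP/E3 cortex. In females Cox6a1 averaged 164 ± 17.2 CPM in APP/E4 HFD, 169 ± 12.1 in APP/E4 ND, 179 ± 22.1 in APP/E3 HFD and 186 ± 15.6 in APP/E3 ND animals. In males Cox6a1 averaged 145 ± 11.9 CPM in APP/E4 HFD, 159 ± 29.9 in APP/E4 ND, 150.1 ± 14.6 in APP/E3 HFD and 187 ± 21.8 in APP/E3 ND animals. Atp5d, the delta subunit of the central stalk of the ATP synthase, had a log2 difference of -0.17 ± 0.045 (SE, adjusted p = 0.0127). Atp5d had lowest, median and highest values of 100.5, 137 and 184 CPM in APP/E4 cortex, against 113, 149 and 201 CPM in APP/E3 cortex. In females Atp5d averaged 142 ± 6.25 CPM in APP/E4 HFD, 140.1 ± 16.4 in APP/E4 ND, 154 ± 14 in APP/E3 HFD and 171 ± 15.4 in APP/E3 ND animals. In males Atp5d averaged 125 ± 15.5 CPM in APP/E4 HFD, 136 ± 25 in APP/E4 ND, 134 ± 10.9 in APP/E3 HFD and 155 ± 23.3 in APP/E3 ND animals. Atp5j2 had a log2 difference of -0.19 ± 0.058 (SE, adjusted p = 0.0289). Atp5j2 had lowest, median and highest values of 21.4, 29.9 and 42 CPM in APP/E4 cortex, against 23, 33.1 and 50.3 CPM in APP/E3 cortex. In females Atp5j2 averaged 30.4 ± 3.56 CPM in APP/E4 HFD, 29.2 ± 4.48 in APP/E4 ND, 38.1 ± 5.72 in APP/E3 HFD and 34 ± 4.91 in APP/E3 ND animals. In males Atp5j2 averaged 26.2 ± 3.26 CPM in APP/E4 HFD, 31 ± 5.86 in APP/E4 ND, 27.6 ± 2.65 in APP/E3 HFD and 34.5 ± 6.38 in APP/E3 ND animals. The APP/E4 mean of Atp5d was below the APP/E3 mean in each of the 4 pairs of groups matched for diet and sex, and so was that of Atp5j2.

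**Figure D3:**
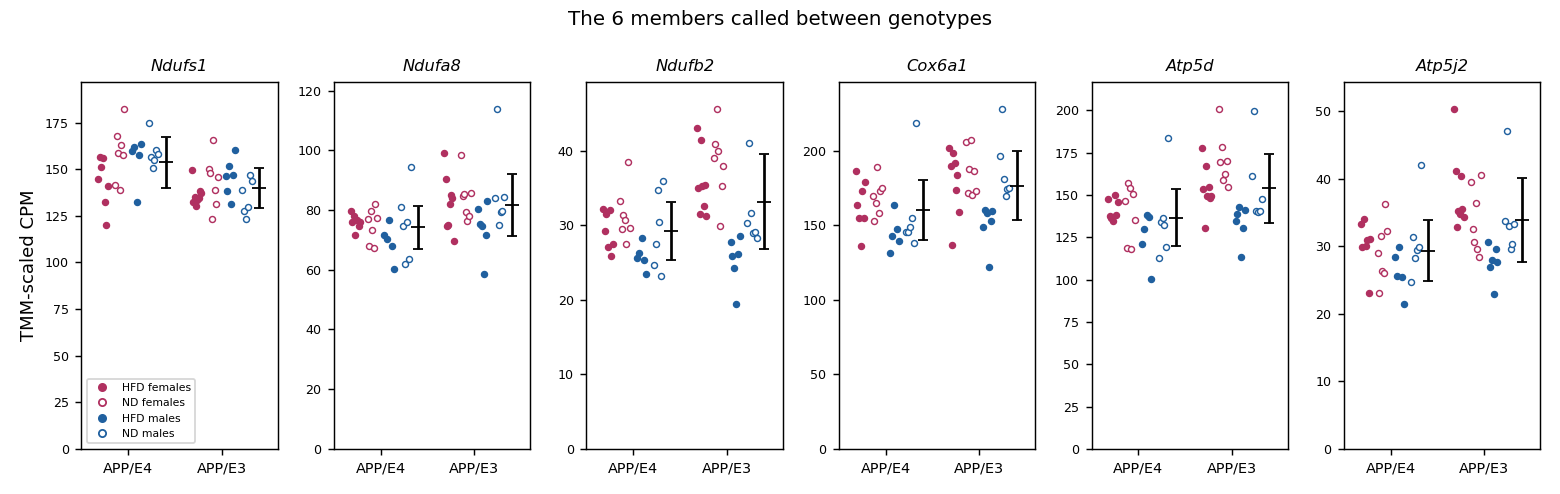
TMM-scaled CPM (vertical axes, from 0) of the 6 members called between the genotypes are plotted for each animal, APP/E4 left and APP/E3 right, by sex (colour) and diet (filled HFD, open ND), with the mean and SD beside each genotype. The ranges of the genotypes overlap in all 6, and the means differ by 0.13 (Ndufs1) and by -0.14 to -0.19 (the other 5) on the log2 scale.

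The calls differed in how far they rested on single libraries. The call of Atp5d held without each of the 52 libraries in turn. That of Atp5j2 was lost without APP/E4 HFD male 5, APP/E4 ND male 1 or APP/E3 ND male 2, with adjusted p-values (edgeR) up to 0.059. The call of Ndufa8 was lost in 11 of the 52 fits, that of Ndufb2 in 24 and that of Cox6a1 in 36. The number of members called ran from 2, when either APP/E4 HFD male 5 or APP/E3 ND male 2 was left out, to 12, without APP/E4 ND male 6. The share of all genes called in these fits is not given here, so a change over all genes is not set apart. Without the 4 libraries far from their groups 14 members were called, against 7.75% of all genes. These were the same 6 and Ndufa2, Ndufa7, Ndufv3, Ndufb6, Uqcrq, Atp5g1, Atp5e and, higher in APP/E4, Ndufaf1.

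Oligodendrocyte markers differed in the same comparison. All 6 were higher in APP/E4, with a median log2 difference of 0.28 and 1 called, and their summed level ran from 2316 to 6953 CPM (median 3202) in APP/E4 and from 1125 to 5067 CPM (median 2707) in APP/E3, with none of the 6 at 0. Their part in the differences of the 6 members was not tested. The 7 Ndufaf factors had a median of 0.073 with 5 of 7 higher in APP/E4 and 0 called by edgeR, 4 of them at an unadjusted p under 0.05, as were 21.3% of all genes. Ndufaf1 had 0.11 ± 0.039, Ndufaf4 0.10 ± 0.039, Ndufaf7 0.073 ± 0.036, Ndufaf2 0.12 ± 0.068 and Ndufaf6 -0.16 ± 0.077. Over the 8 groups Ndufaf1 ran from 19.3 ± 3.02 CPM in APP/E3 HFD males to 21.8 ± 2.16 CPM in APP/E4 ND males and Ndufaf4 from 32.2 ± 3.33 CPM in APP/E3 ND females to 36.7 ± 2.63 CPM in APP/E4 HFD males. All 13 mitochondrially encoded subunits were higher in APP/E4, with a median of 0.14 and 1 called. Of the 41 assembly factors with other symbols 1 rose and 3 fell, of the 21 TCA cycle genes 2 rose, and of the 17 regulators of biogenesis 1 fell, beside the 6.79% called over all genes. Among the 16 electron carriers and the 11 uncouplers and carriers edgeR called 0, with 2 and 3 at an unadjusted p under 0.05, against 21.3% of all genes.

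Of the other subunits, Sdha (0.051 ± 0.02), Sdhb (-0.055 ± 0.036), Uqcrq (-0.13 ± 0.054), Uqcrb (0.14 ± 0.073) and Cox6b1 (-0.076 ± 0.042) had the smallest p-values of complexes II, III and IV beside Cox6a1, and none passed the test. Over the 8 groups Uqcrb, which shares 43.2% of its windows with other genes, ran from 24.8 ± 3.19 CPM in APP/E3 HFD males to 35.5 ± 6.26 CPM in APP/E3 HFD females, and Cox6b1 from 129 ± 18.7 CPM in APP/E3 HFD males to 151 ± 13 CPM in APP/E3 ND females.

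Within single combinations of diet and sex no member was called between the genotypes by edgeR or limma voom, and DESeq2 called 1, in ND females. In HFD females 0 of 87 were called against 0.605% of all genes, and 7 had an unadjusted p under 0.05 against 12%. In ND females the counts were 0 against 0.961%, and 9 against 15.8%. In HFD males they were 0 against 0.224%, and 2 against 5.39%. In ND males they were 0 against 0.401%, and 8 against 11%. The members with the smallest p were Atp5j2 in HFD females (-0.33 ± 0.11), Atp5d in ND females (-0.28 ± 0.085), Uqcrb in HFD males (0.38 ± 0.16) and Ndufs1 in ND males (0.24 ± 0.066). The genotype by sex interaction had a subunit median of -0.071, 0 members called by edgeR, DESeq2 or limma voom, against 0.00658% of all genes by edgeR, and 2 members, Ndufb2 and Cox5a, at an unadjusted p under 0.05 against 5.11%.

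The third comparison set the 29 females against the 23 males. Of the 87 members 11 were called, all higher in females, which is 12.6% against 4.42% of all genes called in either direction and 2.91% called higher. Over the subunits 65 of 74 were higher in females, against 51.2% of all genes, with a median of 0.094 against 0.0027. By complex the medians were 0.067 for I, 0.0021 for II, 0.10 for III, 0.14 for IV and 0.099 for V, and -0.0079 for the Ndufaf factors. The calls comprised 6 members of complex I, 2 of complex III, 2 of complex V and the assembly factor Ndufaf2. DESeq2 and limma voom called 13 each, beside 837 of 15194 genes by DESeq2 and 808 of 15195 by limma voom.

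In complex I the called members were Ndufb2, Ndufb11, Ndufc1, Ndufs6, Ndufa13 and Ndufb6. Ndufb2 had lowest, median and highest values of 25.9, 32.2 and 45.6 CPM in the females, against 19.5, 27.8 and 41 CPM in the males. The ranges overlapped, and the log2 difference was 0.26 ± 0.05 (SE, adjusted p = 0.000695, edgeR). Its 4 female group means all lay at or above 29.4 CPM, and the highest male group mean was 31.6 CPM. Ndufb11, an X-linked accessory subunit of the membrane arm, averaged 56.2 ± 10.1 CPM in females and 46.2 ± 5.98 CPM in males, a log2 difference of 0.28 ± 0.059 (SE, adjusted p = 0.00259). In females Ndufb11 averaged 52.9 ± 6.91 CPM in APP/E4 HFD, 52 ± 11 in APP/E4 ND, 62.5 ± 10.1 in APP/E3 HFD and 56.5 ± 10.1 in APP/E3 ND animals. In males Ndufb11 averaged 44.6 ± 3.08 CPM in APP/E4 HFD, 47.5 ± 7.45 in APP/E4 ND, 42.8 ± 6.05 in APP/E3 HFD and 49.5 ± 5.15 in APP/E3 ND animals. The other X-linked subunits, Ndufa1 and Cox7b, had 0.12 ± 0.047 (adjusted p = 0.133) and 0.18 ± 0.063 (adjusted p = 0.0861), so 1 of the 3 was called.

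Ndufc1, a small accessory subunit of the membrane arm, averaged 21.5 ± 3.75 CPM in females and 18.1 ± 3.38 CPM in males, a log2 difference of 0.26 ± 0.067 (SE, adjusted p = 0.0187). In females Ndufc1 averaged 20.2 ± 3.67 CPM in APP/E4 HFD, 20.6 ± 3.33 in APP/E4 ND, 23 ± 3.61 in APP/E3 HFD and 21.8 ± 4.46 in APP/E3 ND animals. In males Ndufc1 averaged 16.4 ± 2.85 CPM in APP/E4 HFD, 18.5 ± 3.27 in APP/E4 ND, 16.8 ± 2.08 in APP/E3 HFD and 20.3 ± 4.26 in APP/E3 ND animals. Ndufs6, a zinc-binding accessory subunit, averaged 23.8 ± 4.32 and 20.4 ± 2.54 CPM in the same order, a log2 difference of 0.22 ± 0.062 (SE, adjusted p = 0.0299). In females Ndufs6 averaged 22 ± 3.13 CPM in APP/E4 HFD, 22.6 ± 4.2 in APP/E4 ND, 26 ± 4.42 in APP/E3 HFD and 24.1 ± 5 in APP/E3 ND animals. In males Ndufs6 averaged 20.03 ± 0.685 CPM in APP/E4 HFD, 20.9 ± 2.95 in APP/E4 ND, 18.9 ± 3.29 in APP/E3 HFD and 21.5 ± 1.92 in APP/E3 ND animals. Ndufa13, also known as GRIM-19, averaged 90.7 ± 9.86 CPM in females and 80.6 ± 13.3 CPM in males, a log2 difference of 0.17 ± 0.05 (SE, adjusted p = 0.0332). In females Ndufa13 averaged 88.1 ± 2.57 CPM in APP/E4 HFD, 85.8 ± 10.5 in APP/E4 ND, 95.3 ± 12.1 in APP/E3 HFD and 93 ± 9.78 in APP/E3 ND animals. In males Ndufa13 averaged 76.2 ± 5.52 CPM in APP/E4 HFD, 81.9 ± 17.8 in APP/E4 ND, 74.6 ± 9.07 in APP/E3 HFD and 88.9 ± 14.4 in APP/E3 ND animals. Ndufb6, another subunit of the membrane arm, averaged 46.8 ± 5.18 CPM in females and 42.2 ± 5.87 CPM in males, a log2 difference of 0.15 ± 0.045 (SE, adjusted p = 0.0406). In females Ndufb6 averaged 42.9 ± 3.62 CPM in APP/E4 HFD, 45.1 ± 4.19 in APP/E4 ND, 48.8 ± 5.92 in APP/E3 HFD and 49.97 ± 3.96 in APP/E3 ND animals. In males Ndufb6 averaged 39.6 ± 3.2 CPM in APP/E4 HFD, 43.3 ± 6.35 in APP/E4 ND, 40.0 ± 4.25 in APP/E3 HFD and 45.4 ± 7.67 in APP/E3 ND animals. In each of these 4 genes the ranges of the sexes overlapped. The late complex I assembly factor Ndufaf2 averaged 11.6 ± 1.88 CPM in females and 9.94 ± 2.02 CPM in males, a log2 difference of 0.24 ± 0.068 (SE, adjusted p = 0.0363). In females Ndufaf2 averaged 11.9 ± 1.92 CPM in APP/E4 HFD, 12.1 ± 1.66 in APP/E4 ND, 11.1 ± 1.76 in APP/E3 HFD and 11.3 ± 2.34 in APP/E3 ND animals. In males Ndufaf2 averaged 9.71 ± 1.24 CPM in APP/E4 HFD, 11.1 ± 2.9 in APP/E4 ND, 8.64 ± 0.941 in APP/E3 HFD and 10.3 ± 1.91 in APP/E3 ND animals. The other 6 Ndufaf factors lay between -0.059 and 0.053 and were not called.

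In complex III the called members were Uqcrq and Uqcrh. Uqcrq averaged 65.3 ± 7.96 CPM in females and 57 ± 11.7 CPM in males, a log2 difference of 0.21 ± 0.054 (SE, adjusted p = 0.0175). In females Uqcrq averaged 62.7 ± 4.44 CPM in APP/E4 HFD, 60.9 ± 8.53 in APP/E4 ND, 65.5 ± 8.96 in APP/E3 HFD and 71.8 ± 5.49 in APP/E3 ND animals. In males Uqcrq averaged 50.3 ± 6.06 CPM in APP/E4 HFD, 58.6 ± 13.7 in APP/E4 ND, 51.1 ± 4.93 in APP/E3 HFD and 66.9 ± 12.4 in APP/E3 ND animals. Uqcrh averaged 111 ± 20.7 CPM in females and 95 ± 12.2 CPM in males, a log2 difference of 0.23 ± 0.064 (SE, adjusted p = 0.0312). In females Uqcrh averaged 111 ± 19.3 CPM in APP/E4 HFD, 107 ± 19.4 in APP/E4 ND, 119 ± 21.5 in APP/E3 HFD and 107 ± 23.9 in APP/E3 ND animals. In males Uqcrh averaged 94.5 ± 6.58 CPM in APP/E4 HFD, 98.9 ± 14.3 in APP/E4 ND, 87.9 ± 13.8 in APP/E3 HFD and 98.7 ± 11.4 in APP/E3 ND animals. The large core subunits were not called: Uqcrc1 had 0.038 ± 0.034 and Uqcrc2 -0.044 ± 0.033.

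In complex V the called members were Atp5k and Atp5o. Atp5k, the e subunit of the membrane part, which helps ATP synthases to pair, had the largest difference of the 11. Atp5k had lowest, median and highest values of 24.7, 31.6 and 70.8 CPM in the females, against 18.7, 27.8 and 41.7 CPM in the males, and the log2 difference was 0.50 ± 0.12 (adjusted p = 0.00922). In females Atp5k averaged 38.1 ± 14.4 CPM in APP/E4 HFD, 36.8 ± 17.2 in APP/E4 ND, 48 ± 14.8 in APP/E3 HFD and 37.8 ± 15.8 in APP/E3 ND animals. In males Atp5k averaged 28.2 ± 2.61 CPM in APP/E4 HFD, 29.6 ± 4.67 in APP/E4 ND, 25.6 ± 4.24 in APP/E3 HFD and 30.3 ± 5.75 in APP/E3 ND animals. Atp5o, the stalk protein known as OSCP, averaged 90.9 ± 28.5 CPM in females and 72 ± 10.4 CPM in males, a log2 difference of 0.33 ± 0.097 (SE, adjusted p = 0.0399). In females Atp5o averaged 83.7 ± 24 CPM in APP/E4 HFD, 84.7 ± 26.6 in APP/E4 ND, 107 ± 33.3 in APP/E3 HFD and 86.1 ± 27.4 in APP/E3 ND animals. In males Atp5o averaged 68.2 ± 3.02 CPM in APP/E4 HFD, 73.5 ± 13.2 in APP/E4 ND, 68.5 ± 10.5 in APP/E3 HFD and 77 ± 11.2 in APP/E3 ND animals. The catalytic subunits Atp5a1 and Atp5b had 0.02 ± 0.029 and 0.027 ± 0.03. In complex IV the smallest p-values were those of Cox6c (0.19 ± 0.062, adjusted p = 0.0694) and Cox6a1 (0.13 ± 0.044), with Cox6c running over the groups from 87.3 ± 11.3 CPM in APP/E3 HFD males to 118 ± 16.8 CPM in APP/E3 HFD females.

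The sex difference moved with the 2 library features named above. Among the females the subunit level averaged 0.13 ± 0.11 in the 11 low-Csl libraries and -0.013 ± 0.078 in the other 18 (SD). Among the males it averaged -0.10 ± 0.11 in the 14 libraries without a sex letter and 0.028 ± 0.18 in the 9 with one. With a term for the low-Csl class 1 member was called, Ndufb2, against 4.31% of all genes, and the subunit median was 0.032. Without the 11 libraries 1 was called, again Ndufb2, against 5.18% of all genes, with a median of 0.029. With a term for title style 0 were called against 0.118% of all genes and the median was -0.015, and with both terms 0 against 0.211%, with a median of -0.057. At an unadjusted p under 0.05 there were 4 members with the title term, against 9.04% of all genes, and 7 with both terms, against 12.9%.

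**Figure D4:**
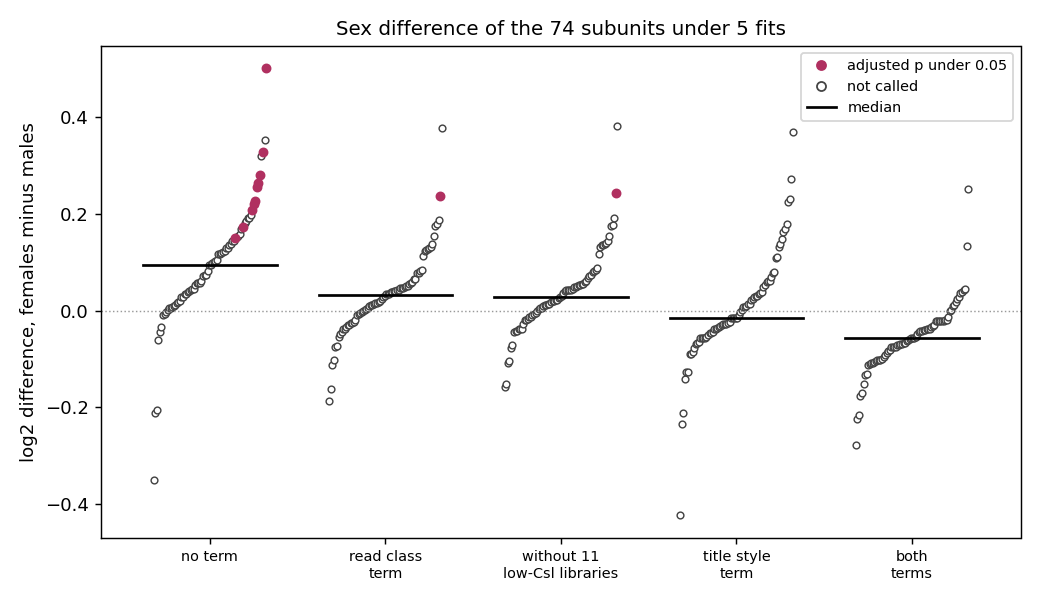
The log2 difference females minus males (vertical axis) of the 74 subunits, sorted within each fit, is plotted for 5 fits (horizontal axis), with called subunits filled and a bar at the median. The median is 0.094 with no term, 0.032 with the class term, 0.029 without the 11 libraries, -0.015 with the title term and -0.057 with both.

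Ndufb2 was called in 3 of these 5 fits. Its sex difference was 0.24 ± 0.056 with the class term (adjusted p = 0.00963, edgeR) and 0.24 ± 0.057 without the 11 libraries (adjusted p = 0.01). With both terms it was 0.13 ± 0.07 (adjusted p = 0.415). Atp5o gave -0.034 with the class term and -0.038 without the 11 libraries, the opposite sign of its value in the full comparison. Atp5k gave 0.034 ± 0.059 with the class term and -0.10 with both terms. All 11 low-Csl libraries are female and all 14 titles without a letter are male, so each feature and sex can be told apart only through the animals of the sex that has both kinds.

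Single libraries moved the count as well. Leaving out 1 library at a time gave between 5 calls, without APP/E4 ND female 6 or APP/E4 HFD male 5, and 23, without APP/E3 ND male 2. It was 22 without APP/E4 ND male 6, and 29 without the 4 libraries far from their groups, against 8.37% of all genes. For the omissions of 1 library the share of all genes is not given here, so a change over all genes is not set apart. The calls of Ndufb2, Ndufb11, Ndufc1, Uqcrq and Atp5k held in all 52 fits, while those of Uqcrh and Ndufs6 were lost in 2, without APP/E4 ND female 6 or APP/E4 HFD male 5. The call of Ndufa13 was lost in 5, of Ndufaf2 in 13, of Ndufb6 in 22 and of Atp5o in 25. Omitting 1 library leaves the other low-Csl females in place, so these fits do not address that class. With the class term, or without all 11 low-Csl libraries, only Ndufb2 was called.

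Other lists in the same comparison did not all lean the same way. Of the 13 mitochondrially encoded subunits 6 fell in females and 11 were lower, with a median of -0.092. Their centred level averaged -0.71 ± 0.20 in the 11 low-Csl females, 0.11 ± 0.21 in the other 18 females and 0.25 ± 0.42 in the males. Among the 41 other assembly factors 1 was called higher, as among the 16 electron carriers and the 11 uncouplers and carriers, and 3 of the 21 TCA cycle genes. Of the 17 regulators of biogenesis edgeR called 0, with 1 at an unadjusted p under 0.05, against 18.9% of all genes. Over all genes 4.42% were called. Microglial markers were higher in 6 of 6 cases, 2 of them called, with summed levels of 418 to 700.2 CPM (median 534) in females and 405 to 662 CPM (median 471) in males. Striatal markers were lower in 6 of 6, with 132 to 1795 CPM (median 508) in females and 128 to 1484 CPM (median 865) in males. No marker of either list was at 0 throughout, and the part of these cells in the differences of the members was not tested.

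The low-Csl class was then examined for its own sake, by the coefficient of the class in a fit with the 8 groups. It called 28 of the 87 members (32.2%, against 22.8% of all genes), 25 higher and 3 lower in low-Csl libraries. The 2 with the largest positive coefficients were Atp5k at 1.02 ± 0.071 and Atp5o at 0.83 ± 0.063, followed by Ndufb4 at 0.79 ± 0.10, Cox6a2 at 0.77 ± 0.16 and Uqcrb at 0.53 ± 0.068. The 3 that were lower were the pseudogene Atp5c1-ps at -2.11 ± 0.15, Atp5g2 at -0.69 ± 0.22 and Cox7c at -0.46 ± 0.12. Atp5c1-ps averaged 0.845 ± 0.326 CPM in the 11 libraries and 3.64 ± 0.575 CPM in the other 18 females. Its parent gene Atp5c1, the gamma subunit, averaged 193 ± 14.1 and 152 ± 10.7 CPM in the same order.

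The class difference went with sequence shared between genes. Of the 37 members with at least 1 50-base window of their transcript found exactly in another annotated gene, 22 were called between the classes (59.5%), and of the 50 with none, 6 were (12%). The cause of the class difference was not tested. By degree, 12 of the 18 members sharing over 10% of their windows were called, and 10 of the 19 sharing less. Atp5k shares 1.24% of its windows, with 2 pseudogenes, and Cox6a2 none, while Atp5g1 at 66% had a coefficient of -0.086 ± 0.068 and Atp5l at 68.5% one of -0.045 ± 0.19. Of the 11 members called between the sexes, Ndufb2, Ndufb11, Ndufc1, Ndufs6, Ndufa13, Uqcrh, Atp5k and Atp5o share windows, and Ndufb6, Ndufaf2 and Uqcrq share none. Ndufb2 itself had a class coefficient of 0.072 ± 0.07 and Uqcrq one of 0.049 ± 0.077, neither called.

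**Figure D5:**
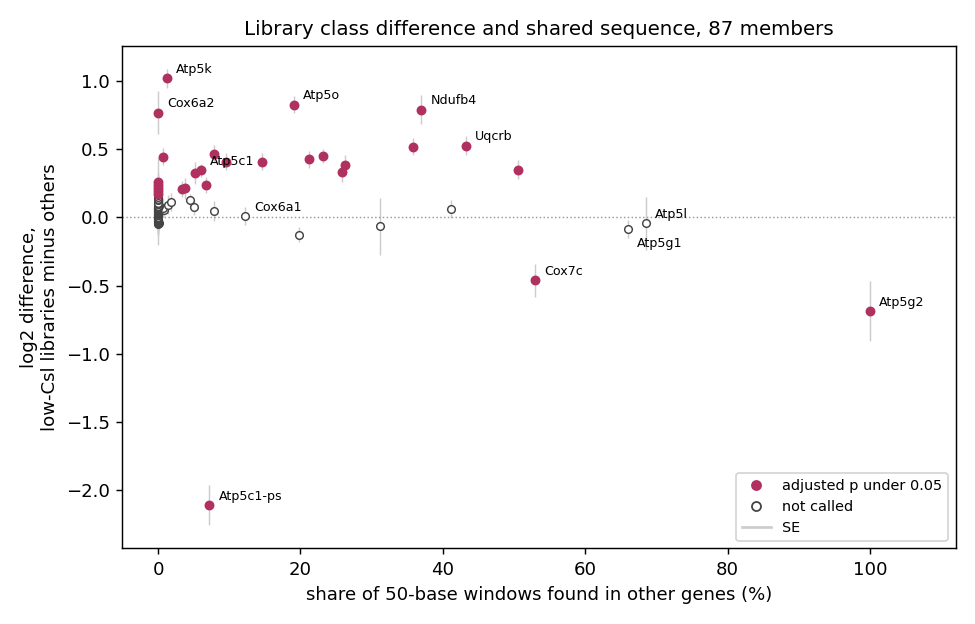
The log2 difference of the 11 low-Csl libraries minus the other 41 (vertical axis, bars are SE) is plotted against the share of each member's 50-base windows found in other genes (horizontal axis, %) for the 87 members, with called members filled. Atp5k and Atp5o are highest at 1.02 and 0.83, and Atp5c1-ps is lowest at -2.11.

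The authors' own comparison of the diets is part of the deposit. Of the 87 members, 12 had an unadjusted p under 0.05 in the authors' deposited table, against 7.69% of all 15692 genes. The deposited coefficient had the opposite sign of the HFD minus ND difference in 84 of the 87 members and in 93.5% of all genes, so the deposited coefficient runs the other way. In the authors' deposited table Atp5g3 had a coefficient of 0.099 (unadjusted p = 0.00532, as deposited), Ndufaf3 one of 0.11, Ndufa6 one of 0.12 and Uqcrq one of 0.15.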

How the data were processed

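The deposited values are whole-number counts of reads per gene for 52 libraries, made by the authors. The submitters' processing notes name Subread, featureCounts, limma, edgeR 3.14.0 and the mm9 build, with no role or order. 1 deposited table of log2 coefficients and p-values for diet, also the authors' own, was read beside them, and no step of its model is given in the sources used here.

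Here edgeR 4.0.16 (R 4.3.3) was fitted to the counts as deposited, with TMM scaling, filterByExpr over the 8 groups, 1 mean per group and the robust quasi-likelihood F-test. Benjamini-Hochberg adjustment ran over all 15195 genes kept, and "called" means an adjusted p under 0.05. SE is the log2 difference divided by the square root of F. Lists were described by counts and medians, and a library's level by centred log2 CPM with a prior count of 2. The scripts were tested on simulated data. Alternatives were other scalings, no filter, DESeq2 1.42.0, limma voom (3.58.1), terms for the Csl class (under 3 CPM) and title style, and omission of libraries. Levels per kilobase use the length of 1 coding GENCODE M21 transcript a gene, and shared windows are 50 bases of that transcript found exactly in transcripts of other genes. The build of that annotation differs from mm9, so both values are approximate.

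The members and lists were chosen with earlier results of these data known. By the rule for named genes, all called members have values in all 8 groups, and those with the 2 smallest p-values of a complex in a main comparison have their lowest and highest group mean; the other genes named, within single groups, in interactions or among isoforms, were chosen after their values were seen. Replicate numbers follow accession order and only name animals. A ± after CPM or a centred level is an SD between animals, and a ± after a log2 difference is an SE.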

Additional observations from a re-analysis of the deposited data

Results flagged for a closer look

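Of 176 groups of 5 to 8 libraries examined, 46 had an animal whose gap to the nearest other animal exceeded Dixon's critical value. For 1 group taken alone, chance gives about 1 in 20. The 176 reuse the same 52 libraries for levels that move together, so the 46 cannot be read as an excess over chance. The marked values fell on few libraries. Levels of a complex are centred log2 CPM averaged over its subunits, and levels of a gene are CPM.

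APP/E3 ND male 2 stood high in complex I (0.37), complex II (0.22) and the Ndufaf factors (0.26). Its genes so marked were Atp5d (199 CPM), Atp5j2 (47.1), Atp5k (41.7), Atp5o (98.3), Ndufa13 (117), Ndufa8 (114), Ndufaf2 (14.1), Ndufb11 (59.8), Ndufb2 (41.0) and Ndufc1 (28.7).

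APP/E4 ND male 6 stood high in complexes I (0.35), III (0.33), IV (0.30) and V (0.29) and in the Ndufaf factors (0.32), with Atp5d at 184, Atp5k at 38.5, Atp5o at 98.6, Cox6a1 at 219, Ndufa13 at 115 and Ndufb6 at 55.7 CPM.

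APP/E3 HFD female 1 stood high in complexes I (0.37), III (0.40) and V (0.40) and in the Ndufaf factors (0.26). It had 50.3 CPM of Atp5j2, 121 of Ndufa13, 31.0 of Ndufc1, 149.6 of Ndufs1 and 35.5 of Ndufs6.

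APP/E3 HFD male 4 stood low in complexes I (-0.47), III (-0.45) and V (-0.34), with Atp5o at 47.8, Cox6a1 at 122, Ndufb6 at 31.4, Ndufs6 at 12.4 and Uqcrh at 61.0 CPM.

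The other libraries had 1 or 2 such values. APP/E4 HFD female 6 was low in complex V (-0.29) and Atp5j2 (23.1 CPM), APP/E4 HFD male 5 low in complex I (-0.18), APP/E4 HFD male 3 low in Ndufs1 (132.6 CPM) and APP/E3 ND female 1 high in Ndufa8 (98.5 CPM).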

How the results depend on the processing

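No paired analysis was possible because replicate numbers follow accession order and pair nothing. The diet comparisons, the 3 interactions and the genotype comparisons in HFD animals had 0 calls among the members under every alternative run and without each library in turn. Between the genotypes 6 members were called in the main fit, beside 1032 of all 15195 genes. With library totals it was 3, beside 1025 genes, and with both technical terms 12, beside 1684. It was 14 without the 4 libraries far from their groups, beside 1174 of 15155 genes, and 2 to 12 without 1 library. In ND females the genotype calls were 1 with the title term, 1 with both terms, 1 by DESeq2 and 2 without the 4 libraries. Without 1 library they were 0 to 1 in ND females and 0 to 1 in ND males. For these ND fits and for all omissions of 1 library the share of all genes is not given here. Between the sexes 1 was called with the class term (4.31% of all genes) and 1 without the low-Csl libraries (5.18%). There were 0 with the title term (0.118%) and 0 with both terms (0.211%). It was 29 without the 4 libraries (8.37%) and 5 to 23 without 1 library.

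The subunit median moved to -0.057 between the sexes with both terms. Without the 4 libraries it was -0.051 for diet in APP/E3 males and 0.010 for the diet by sex interaction. Without 1 library it ran from -0.083 to -0.053 for diet, -0.039 to -0.0062 for genotype and 0.078 to 0.12 for sex. By group the diet median ran from -0.037 to 0.021 in APP/E4 females, -0.054 to 0.015 in APP/E3 females, -0.14 to -0.021 in APP/E4 males and -0.22 to -0.12 in APP/E3 males, and the diet by sex interaction from 0.095 to 0.15.

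Of the 17 calls of single members, all kept direction and call with DESeq2, RLE scaling and no filter. The count was 14 with library totals, 14 with upper-quartile scaling and 15 with limma voom. All 17 also held without the 4 libraries, but these were chosen by the level of the same subunits. Their omission is thus no independent check. The class term kept 7, the title term 6, both terms 6 and the omission of the low-Csl libraries 6. With both terms the sex difference turned to -0.13 for Atp5o, -0.10 for Atp5k, -0.054 for Uqcrh, -0.037 for Ndufs6, -0.030 for Ndufb6, -0.022 for Ndufc1 and -0.0012 for Ndufa13. That of Atp5o was -0.034 with the class term and -0.038 without the low-Csl libraries. The cause was not tested.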
